A study of Mus musculus with 11 samples.

Results

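The 10 genes described here are established macrophage genes, Csf1r, Cx3cr1, Cd14, Emr1, Ptprc, C1qa, C1qb, C1qc, Lyz2 and Cd68, and they were followed through all 11 libraries of an RNA-Seq study of mouse spermatogonia. They are 10 of the 37991 Ensembl identifiers in the expression tables, and each was matched by its name in the GENCODE M1 annotation. The genes were chosen by their RPKM in these same libraries, as macrophage markers that were higher in KIT+ cells from 15-month-old mice, so the comparisons that contain those libraries are given as a description, without a test. All 10 reached 10 reads in 2 or more libraries, the filter on low values, and entered the fit across genes. Only 5 of the 10 would have done so without the 15-month KIT+ libraries.

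All libraries came from germ cells of B6;CBA-Tg(Pou5f1-EGFP)2Mnn/J mice, in which regulatory sequence of Pou5f1 (Oct4) drives a green fluorescent protein, and all cells were sorted as GFP-positive. An antibody to KIT, a receptor tyrosine kinase that appears on spermatogonia as they start to differentiate, divided them into KIT- and KIT+ fractions. The groups were KIT- and KIT+ cells of 6-day-old mice, KIT- and KIT+ cells of 8-month-old mice, and KIT- and KIT+ cells of 15-month-old mice, with 2 libraries each except for 8-month KIT+, which had 1. The labels give a single age per sample, whereas the study's design text gives the adult and aged groups as ranges of months. Adult and aged testes were digested with collagenase and hyaluronidase, spermatogonia were concentrated in Percoll, and the sort used GFP and KIT. No leukocyte antibody is named for the sort in the methods.

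Macrophages are phagocytic cells of the innate immune system that live in most organs. In the testis they are found in the interstitium between the tubules and on the tubule surface near undifferentiated spermatogonia, and they are known for their contact with Leydig cells and for a muted inflammatory response. Their survival depends on the receptor CSF1R and its ligands, they recognise microbes through receptors such as CD14, they make the 3 chains of complement C1q, and they degrade what they ingest with lysozyme and lysosomal enzymes.

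The tables held RPKM, in which a gene's reads are scaled to its exon length and to the library's total. Whole reads could be recovered from these values, and the libraries had 12238328 to 76756537 reads on genes. The 15-month KIT+ libraries were the deepest of the 11 and the 8-month libraries the shallowest. Kit, the gene of the sorted antigen, was at 35.8 to 81.3 RPKM in the 5 KIT+ libraries and at 3.36 to 9.66 RPKM in the 6 KIT- libraries. The germ cell genes Ddx4 and Dazl were abundant in every library, at 106 to 183 and 170 to 462 RPKM. Pou5f1, the gene whose sequence drives the reporter, was at 9.05 and 3.88 RPKM in the 15-month KIT+ libraries and at 44.9 and 70.2 RPKM in the 15-month KIT- libraries.

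The 10 macrophage genes were a small part of every library. Together they took 1581 and 6131 reads in the 15-month KIT+ libraries, which is 26.7 and 79.9 RPM (reads scaled to the library's total but not to gene length), and 1.58 to 8.30 RPM in the 9 other libraries. All 10 genes were above 3 reads in both 15-month KIT+ libraries, and 2 to 7 of them were in each of the others. Both 15-month KIT+ libraries were above both 15-month KIT- libraries for 8 of the 10 genes (25.6% of all 18412 tested genes did the same), and above all 9 other libraries for 7 of the 10 (7.12% of tested genes). The choice of the genes fixed much of these counts, and they are not evidence of a difference. In bulk RNA, fewer cells of a type and less RNA per cell cannot be told apart.

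**Figure D1:**
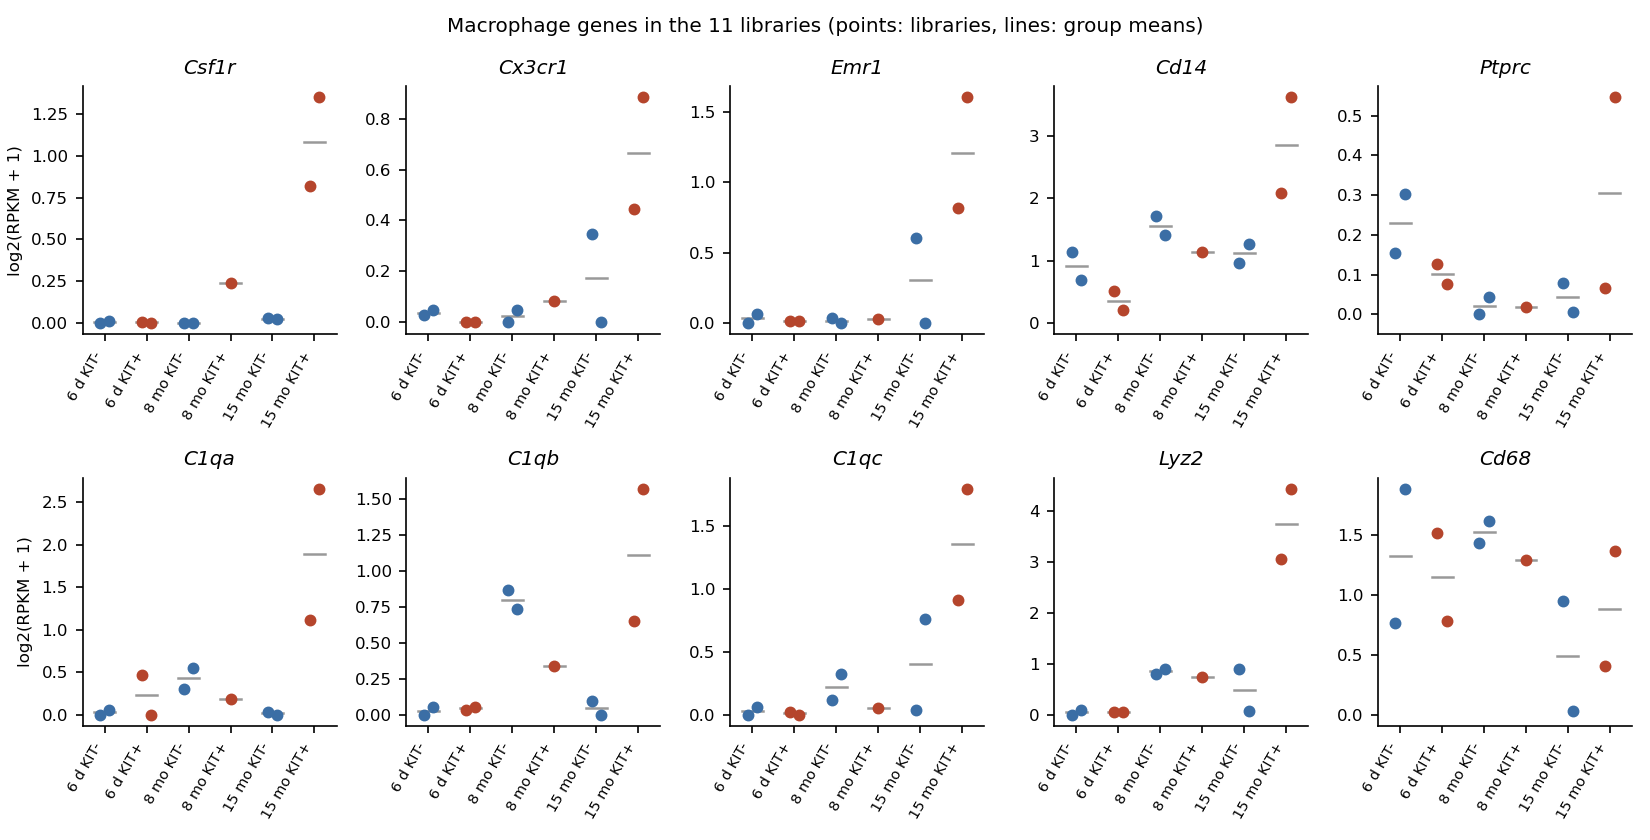
Level of each of the 10 macrophage genes, as log2(RPKM + 1) on the vertical axis, in the 6 groups on the horizontal axis; points are libraries (blue KIT-, red KIT+) and grey lines are group means. In 7 panels both 15-month KIT+ points lie above every other point, whereas in those of Cd68, C1qb and Ptprc at least 1 other library reaches the lower of them.

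Csf1r encodes the receptor for the growth factors CSF1 and IL34 and lies on chromosome 18 at 61265226 to 61291803 of mm9, on the plus strand. It was at 0.766 and 1.55 RPKM in the 15-month KIT+ libraries (237 and 622 reads) and at 0.0194 and 0.0171 RPKM in the 15-month KIT- libraries (4 and 3 reads). The single 8-month KIT+ library held 13 reads (0.18 RPKM), and each of the 6 remaining libraries held 0 or 1 read. No library but these 3 of adult KIT+ cells had more than 4 reads of Csf1r. On the log2(RPKM + 1) scale the 15-month KIT+ mean was 1.06 above the KIT- mean (SE 0.15), and the ratio of pooled reads, scaled to depth, was 65.9 (95% exact interval 31.9 to 165). Such intervals cover counting error only and not the spread between libraries. Csf1r overlaps Hmgxb3 on the opposite strand, and whether strand was used in counting is not given in the sources used here.

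Cx3cr1 encodes the receptor for the chemokine CX3CL1 (chromosome 9, 119957811 to 119977400, minus strand). Its levels were 0.362 and 0.849 RPKM in 15-month KIT+ cells and 0.272 and 0 RPKM in 15-month KIT- cells, where replicate 1 held 40 reads and replicate 2 none. The other 7 libraries held 0 to 3 reads, with 0.0582 RPKM in 8-month KIT+ cells as their highest. The order of the group means was 15-month KIT+, 15-month KIT- and 8-month KIT+, of which the last 2 overlapped in range.

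Emr1 encodes F4/80, an adhesion receptor used as a surface marker of mouse macrophages (chromosome 17, 57498109 to 57622952, plus strand). The 15-month KIT+ libraries were at 0.76 and 2.04 RPKM (146 and 509 reads). The 15-month KIT- libraries were at 0.523 and 0 RPKM (67 and 0 reads). Replicate 1 of the 15-month KIT- cells was thus the next highest library for both Emr1 and Cx3cr1, and replicate 2 had no read of either gene. In the remaining 7 libraries Emr1 had 0 to 4 reads. The group means differed by 0.91 for Emr1 (SE 0.27) and 0.49 for Cx3cr1 (SE 0.16) on the log2(RPKM + 1) scale, and by 0.60 and 0.32 without replicate 2 of the 15-month KIT- cells.

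Cd14 encodes a co-receptor for bacterial lipopolysaccharide (chromosome 18, 36884728 to 36886390, minus strand). It was the only one of the 10 genes with more than 3 reads in all 11 libraries. It was at 3.21 and 11.3 RPKM in 15-month KIT+ cells and at 0.951 and 1.40 RPKM in 15-month KIT- cells. In 8-month mice it was at 2.29 and 1.65 RPKM in KIT- cells and 1.2 RPKM in KIT+ cells. In 6-day mice it was at 1.2 and 0.618 RPKM in KIT- cells and 0.425 and 0.15 RPKM in KIT+ cells. At 6 days and 8 months the KIT+ libraries were thus below the KIT- libraries, and at 15 months both lay above them. The 15-month difference was 1.73 on the log2(RPKM + 1) scale (SE 0.45).

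Ptprc encodes CD45, a phosphatase on the surface of nucleated blood cells, and is a marker of leukocytes rather than of macrophages alone (chromosome 1, 139959438 to 140071882, minus strand). It was at 0.0465 and 0.461 RPKM in 15-month KIT+ cells (16 and 206 reads) and at 0.0566 and 0.00512 RPKM in 15-month KIT- cells (13 and 1 reads). Replicate 1 of the KIT+ cells was below replicate 1 of the KIT- cells, so the groups overlapped. The 6-day KIT- libraries, at 0.114 and 0.234 RPKM, also lay above the lower 15-month KIT+ library. The difference of the 15-month group means was 0.26 on the log2(RPKM + 1) scale (SE 0.15), and 0.02 without replicate 2 of the 15-month KIT+ cells.

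C1qa, C1qb and C1qc encode the A, B and C chains of C1q, the recognition unit of the classical complement pathway, and are made mainly by macrophages and other myeloid cells rather than by the liver. They lie in a row on the minus strand of chromosome 4, in the order C1qb (136436044 to 136442102), C1qc (136445719 to 136448980) and C1qa (136451832 to 136454718) in mm9. The whole cluster spans 18675 bp, with 3616 and 2851 bp between neighbouring genes, and no other gene of the tables lies in it. RefSeq promoter windows, from 250 bases before to 50 after a start site in GRCm38.p6, were held for 6 of the 10 genes (7 windows) and for both C1qb and C1qc, and their upstream parts are shown because the 3 genes adjoin and had the same group on top. Capitals mark the PU box, GAGGAA on either strand, the core sequence bound by the myeloid transcription factor PU.1. The C1qb stretch is chr4:136886201-136886450 and the C1qc stretch chr4:136893066-136893164, both on the minus strand and written 5′ to 3′.
C1qb: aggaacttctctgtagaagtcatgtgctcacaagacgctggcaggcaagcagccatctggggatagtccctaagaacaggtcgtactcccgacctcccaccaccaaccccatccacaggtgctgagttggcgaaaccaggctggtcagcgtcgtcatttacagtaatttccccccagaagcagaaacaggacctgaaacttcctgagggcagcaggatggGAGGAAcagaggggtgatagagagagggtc
C1qc: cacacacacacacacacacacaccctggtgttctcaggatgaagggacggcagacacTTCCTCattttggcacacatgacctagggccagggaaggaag

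The PU box was in the windows of Cd68, C1qb, C1qc and Ptprc, that is, in 4 of the 7 windows, and in 28.3% of the 32851 promoter windows of the same length. The box of C1qb starts 30 bases before the RefSeq start site on the coding strand. That of C1qc lies on the other strand, with its first base 193 bases before the RefSeq start site. The C1qc stretch shown ends after 99 bases, where an earlier transcript start is annotated in GENCODE M1. A TATA box (TATAAA, either strand) was in 1 of the 7 windows, one of Ptprc, and in 13.6% of all windows. These matches describe the letters of the windows and say nothing of binding.

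C1qa was at 1.17 and 5.32 RPKM in 15-month KIT+ cells (72 and 425 reads), against 1 and 0 reads in 15-month KIT- cells. The ratio of pooled reads was 267 with an interval of 47.7 to 10570, whose width comes from the single KIT- read. The next highest library was replicate 2 of the 8-month KIT- cells at 0.463 RPKM (8 reads), and replicate 1 of the 6-day KIT+ cells followed at 0.385 RPKM (15 reads). C1qb was at 0.574 and 1.98 RPKM in 15-month KIT+ cells and at 0.0699 and 0 RPKM in 15-month KIT- cells. The 8-month KIT- libraries, at 0.826 and 0.663 RPKM (11 and 12 reads), both lay above the lower 15-month KIT+ library for this gene. C1qc was at 0.883 and 2.47 RPKM in 15-month KIT+ cells (101 and 366 reads) and at 0.0262 and 0.694 RPKM in 15-month KIT- cells (2 and 45 reads). The 3 genes of the cluster did not share their second-highest library. Replicate 2 of the 15-month KIT- cells had 45 reads of C1qc and 0 reads of C1qa and C1qb. The differences of the 15-month group means were 1.87 for C1qa (SE 0.42), 1.07 for C1qb (SE 0.25) and 0.96 for C1qc (SE 0.31) on the log2(RPKM + 1) scale.

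Lyz2 encodes the lysozyme of macrophages and granulocytes (chromosome 10, 116714390 to 116719377, minus strand) and had the highest level of the 10 genes in 15-month KIT+ cells, 14.0 ± 9.40 RPKM (SD, n = 2). The libraries were at 7.32 and 20.6 RPKM (569 and 2077 reads), and Lyz2 made up 36.0% and 33.9% of the reads of the 10 genes there. In 15-month KIT- cells it was at 0.849 and 0.0453 RPKM, and the 8-month libraries were at 0.747 and 0.87 RPKM in KIT- cells and 0.662 RPKM in KIT+ cells. The 6-day libraries lay between 0 and 0.0592 RPKM. Lyz2 was thus highest in 15-month KIT+ cells. The 8-month libraries and replicate 1 of the 15-month KIT- cells lay above the 6-day libraries. Replicate 2 of the 15-month KIT- cells (2 reads) lay within the 6-day range. The 15-month difference was 3.27 on the log2(RPKM + 1) scale (SE 0.43) and the pooled read ratio 30.9 (23.1 to 42.3). Lyz1, a close copy made mainly by Paneth cells of the gut, had 0 reads in both 15-month KIT+ libraries and at most 3 elsewhere. Of the 1214 stretches of 100 bases in the Lyz2 transcripts, 24 also occur in Lyz1, so most reads could be told apart.

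Cd68 encodes a glycoprotein of late endosomes and lysosomes (chromosome 11, 69477715 to 69479655, minus strand) and did not share the pattern. It was at 0.322 and 1.58 RPKM in 15-month KIT+ cells, 0.927 and 0.0237 RPKM in 15-month KIT- cells, 1.69 and 2.06 RPKM in 8-month KIT- cells and 1.44 RPKM in 8-month KIT+ cells. In 6-day mice it was at 0.694 and 2.69 RPKM in KIT- cells and 1.85 and 0.721 RPKM in KIT+ cells. The highest library was 6-day, the 15-month KIT+ mean was the fifth of the 6 group means, and no neighbouring groups in that order were separate in range. The 15-month difference of 0.39 (SE 0.50, log2 of RPKM + 1) was within its error, and it was -0.09 without replicate 2 of the KIT+ cells and -0.06 without replicate 2 of the KIT- cells.

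The 15-month KIT+ libraries differed from each other for these genes. All 10 were higher in replicate 2, by a factor of 2.02 for Csf1r to 9.93 for Ptprc, with a median of 3.13. Among the 16563 tested genes above 0 in both libraries the median factor was 0.982, 46.6% were higher in replicate 2, and 10.1% were higher by at least 2-fold. With n = 2 the SD was accordingly close to the mean, as in 3.25 ± 2.94 RPKM for C1qa, 7.27 ± 5.73 RPKM for Cd14 and 1.40 ± 0.908 RPKM for Emr1. Without replicate 2, the median difference of the 10 genes between 15-month KIT+ and KIT- cells was 0.56 on the log2(RPKM + 1) scale, and without replicate 1 it was 1.36, against 1.01 with both. The differences without replicate 2 were 2.58 for Lyz2, 1.10 for C1qa, 0.96 for Cd14, 0.79 for Csf1r, 0.61 for C1qb, 0.51 for C1qc, 0.51 for Emr1 and 0.27 for Cx3cr1. Ptprc was close to 0 at 0.02, and Cd68 was below it at -0.09. The choice of the genes fixed much of these signs. The median over all tested genes was -0.04.

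**Figure D2:**
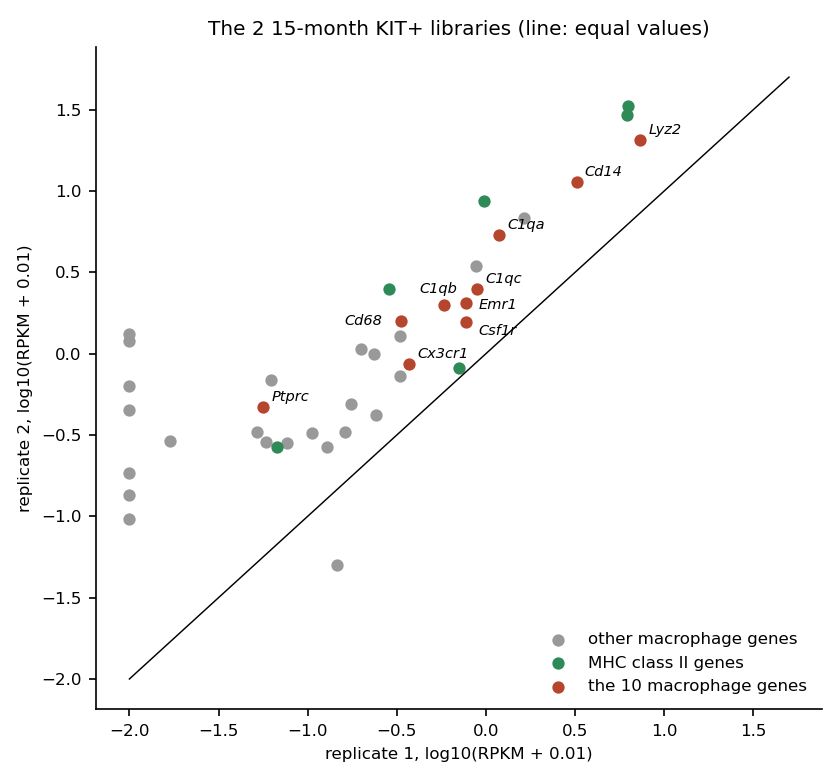
RPKM of replicate 1 (horizontal) and replicate 2 (vertical) of the 15-month KIT+ cells, each as log10(RPKM + 0.01), for the 10 macrophage genes (red, named), 24 other macrophage genes (grey) and 6 MHC class II genes (green); the line marks equal values. All red and green points and 23 of 24 grey points lie above the line, and the 7 grey points at the left edge had no read in replicate 1.

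Across the 11 libraries, 9 of the 10 genes went together, and Cd68 did not. The Pearson correlation of a gene's log2(RPKM + 1) with the mean of the other 9 genes (each scaled to equal spread) was 0.971 for C1qa, 0.944 for Lyz2, 0.931 for Csf1r, 0.916 for Cx3cr1, 0.913 for Emr1, 0.899 for Cd14, 0.849 for C1qc, 0.847 for C1qb and 0.705 for Ptprc, and 0.0449 for Cd68 (n = 11). These values describe the libraries, which include the 15-month KIT+ pair that chose the genes, and carry no test.

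The 4 comparisons without a 15-month KIT+ library had no part in the choice of the genes and were tested with limma. Benjamini-Hochberg adjustment was over the 18412 tested genes, and genes were called when the adjusted p was 0.05 or less and the fold change 1.5 or more. Each gene's spread came from all 11 libraries. It thus took in the 15-month KIT+ pair, which differed by a factor of 2.02 to 9.93 for these genes. Csf1r, Emr1, Cx3cr1, C1qa and C1qc passed the filter on low values only through that pair. Their few reads elsewhere left little room for a fold of 1.5, so the absence of a call says little about them. None of the 10 genes was called between KIT+ and KIT- cells at 6 days (0.0434% of tested genes were called) or at 8 months (13.8%), between 8-month and 6-day KIT- cells (22.8%), or between 15-month and 8-month KIT- cells (5.57%). The same counts of 0 were obtained with limma on the recovered reads (voom weights). With a pseudocount of 0.1 in place of 1, Lyz2 and C1qb were called between 8-month and 6-day KIT- cells and C1qb between 15-month and 8-month KIT- cells, and with only the groups compared in the fit Lyz2 and C1qb were called in the former. Over all tested genes, the pseudocount of 0.1 gave 3149 higher and 1503 lower calls in the former and 455 and 342 in the latter. Fitting only the groups compared gave 2825 higher and 1481 lower calls in the former. At an unadjusted p of at most 0.05, C1qb passed in both age comparisons and no other member passed in any of the 4. Of the 18412 tested genes, 7421 passed in 8-month against 6-day KIT- cells and 4401 in 15-month against 8-month KIT- cells. Between KIT+ and KIT- cells at 6 days 1907 passed. C1qb was 0.78 higher in 8-month than in 6-day KIT- cells (SE 0.25, limma adjusted p = 0.0538) and 0.75 lower in 15-month than in 8-month KIT- cells (log2 difference -0.75, SE 0.25, adjusted p = 0.121). In the 8-month libraries 3 reads stood for 0.031 to 0.0421 RPKM of Ptprc, the lowest of the 10 genes, and for 0.173 to 0.236 RPKM of C1qa, the highest, and levels below these were not measurable there.

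Cd14 had the largest KIT difference among the 10 genes at 6 days, at -0.56 on the log2(RPKM + 1) scale (SE 0.45, limma adjusted p = 0.768). At 8 months the largest was that of C1qb, at -0.46 (SE 0.31, adjusted p = 0.38), and Csf1r was at 0.24 (SE 0.19, adjusted p = 0.468). In 8-month against 6-day KIT- cells Lyz2 was 0.81 higher (SE 0.43, adjusted p = 0.198). Both 8-month KIT- libraries held 12 or more reads of Lyz2, and both 6-day KIT- libraries 0 or 2. Compared with the single 8-month KIT+ library, the 15-month KIT+ mean was higher by 3.01 for Lyz2, 1.71 for Cd14, 1.7 for C1qa, 1.30 for C1qc, 1.18 for Emr1, 0.85 for Csf1r, 0.77 for C1qb, 0.58 for Cx3cr1 and 0.29 for Ptprc, and lower for Cd68 (-0.40). This comparison and the 15-month KIT comparison share the 15-month KIT+ libraries.

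Other genes followed the 10 closely across the libraries. Ranked by the correlation of log2(RPKM + 1) with the mean of the 10 scaled genes, among 14544 tested genes that reached 1 RPKM in some library, the first 10 were Tnf, Tlr2, C3ar1, Il1a, Mpeg1, Cd74, Ccr1, Gm6377, Ccl7 and Lilrb4, with r from 0.980 to 0.969 (n = 11, no test). Tnf and Il1a encode inflammatory cytokines. Tnf was at 0.618 and 3.78 RPKM and Il1a at 0.445 and 3.24 RPKM in the 15-month KIT+ libraries, and neither exceeded 0.150 RPKM elsewhere. Ccl7, a chemokine that attracts monocytes, was at 1.79 and 8.95 RPKM against at most 0.822 RPKM in the other libraries. Ccr1, which encodes a receptor for this chemokine, was at 0.209 and 1.29 RPKM against at most 0.0511 RPKM. All 10 of these genes, too, were higher in replicate 2, a direction that the ranking favours because the 10 macrophage genes share it.

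Other genes of the macrophage and of its pathways were taken from lists, and their calls come from the 15-month KIT+ against KIT- comparison in which 6.75% of tested genes were called higher and 11.6% lower. Of 24 other macrophage genes, 17 entered the test, 7 of them only because of the 15-month KIT+ libraries. Both genes of the list that were called higher, Ctss and Mpeg1, are among these 7, so their values are given without a test. Ctss, a cysteine protease of antigen processing, was at 1.62 and 6.83 RPKM in 15-month KIT+ cells (130 and 712 reads) and at 0.69 and 0 RPKM in 15-month KIT- cells (37 and 0 reads), with 0 to 6 reads in the other 7 libraries. Mpeg1, a pore-forming protein of phagosomes, was at 0.319 and 1.27 RPKM in 15-month KIT+ cells (82 and 422 reads), and the other 9 libraries held 0 to 7 reads. The group means differed by 1.80 for Ctss and 0.77 for Mpeg1 on the log2(RPKM + 1) scale. Aif1, which encodes the actin-binding protein IBA1, went the other way, from 2.33 and 1.01 RPKM in KIT- cells to 0 and 0.442 RPKM in KIT+ cells (log2 difference -1.11, SE 0.25, limma adjusted p = 0.0159). The other 14 tested genes were not called, and the median of the 17 was 0.12.

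Several markers of the list were at or near 0 in replicate 1 and present in replicate 2 of the 15-month KIT+ cells. Tyrobp, an adaptor of myeloid receptors, had 0 and 57 reads, Fcer1g, an Fc receptor chain, 0 and 38 reads, Pf4 0 and 53 reads, and Trem2 2 and 107 reads. In all, 7 of the 24 genes had no read in replicate 1 and some in replicate 2, and 23 of the 24 were higher in replicate 2. Mrc1, the mannose receptor, was at 0.872 and 3.44 RPKM against 0.648 and 0.24 RPKM in KIT- cells and was not called (log2 difference 1.01, adjusted p = 0.085). The summed level of the 24 genes was 4.66 and 21.9 RPKM in 15-month KIT+ cells and 3.10 to 8.15 RPKM in the other groups, so that of replicate 1 lay within the range of the others.

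The genes that present antigen on MHC class II had the highest median of the 21 lists with a tested gene. Cd74, the invariant chain, was at 6.28 and 33.3 RPKM in 15-month KIT+ cells and 1.85 and 0.042 RPKM in 15-month KIT- cells, a rise of 3.20 (SE 0.70, limma adjusted p = 0.0148). H2-Aa rose by 2.92 (SE 0.73, adjusted p = 0.024), from 2.68 and 0.03 RPKM to 6.19 and 29.4 RPKM. H2-Eb1 differed by 2.04 (adjusted p = 0.0512) and was not called. H2-Ab1, which entered the test only through the 15-month KIT+ libraries, differed by 1.06 and was not called. The median of the 5 tested class II genes was 2.04, and their 6 matched genes summed to 14.5 and 75.0 RPKM in 15-month KIT+ cells and to at most 5.11 RPKM elsewhere. MHC class II is shared by macrophages, dendritic cells and B cells.

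The partners of the 10 genes gave fewer calls. Of the ligands, Csf1 was at 0.279 and 0.396 RPKM in 15-month KIT+ cells and 0.64 and 0.537 RPKM in KIT- cells (log2 difference -0.25, limma adjusted p = 0.119). Il34, the other CSF1R ligand, differed by -0.14 (adjusted p = 0.505) and Cx3cl1 by 0.38 (adjusted p = 0.364). Spi1, which encodes PU.1 and is named Sfpi1 in the annotation, had 0 reads in both 15-month KIT+ libraries and was not tested. A count of 0 allows up to 3 reads. Cebpb, a transcription factor of myeloid and other cells, was lower by -1.52 (SE 0.32, adjusted p = 0.0123), and it was the only one of the 9 tested ligands and transcription factors that was called.

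Among 10 genes of the CD14 and TLR4 pathway, Tlr2, a receptor for bacterial lipoproteins that also uses CD14, rose by 1.79 (SE 0.39, limma adjusted p = 0.0143), from 0.446 and 0 RPKM to 1.6 and 5.67 RPKM. Tlr4 itself was at 0.055 and 0.134 RPKM against 0 in both KIT- libraries (log2 difference 0.13, adjusted p = 0.439). Ly96, the TLR4 partner MD-2, was at 0 and 0.583 RPKM against 0.588 and 0 RPKM. The median of the 10 genes was -0.05, close to that of all tested genes.

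Of 17 complement genes beside C1q, 11 were tested. C3, the central component, rose by 0.80 (SE 0.20, limma adjusted p = 0.0264). C3ar1, the receptor for the fragment C3a, was also called higher but entered the test only through the 15-month KIT+ libraries, where it held 97 and 438 reads (0.381 and 1.33 RPKM), against 0 to 7 reads in the other 9 libraries. Serping1, the C1 inhibitor, fell (log2 difference -1.10, SE 0.24, adjusted p = 0.014). C1s, a protease that works with C1q, had 0 reads in both 15-month KIT+ libraries, and C1ra, its partner, 2 reads in each. Of 12 lysosomal genes, Ctsb (0.71, adjusted p = 0.0169) and Psap (0.65, adjusted p = 0.00612) rose, and the median was 0.38. The lysosomal genes were abundant in all libraries, with a summed level of 430 RPKM or more, and 4 of the 12 were higher in replicate 2 of the 15-month KIT+ cells.

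The calls of the class II, CD14 pathway and complement genes changed with the fit. With voom weights on the recovered reads Cd74, H2-Aa and Tlr2 were not called (limma adjusted p = 0.119, 0.0977 and 0.0751). With the replicate number as a block they were not called either (0.0955, 0.124 and 0.084), nor was C3 (0.127). With the 15-month libraries fitted alone, 0 genes of all those tested were called with limma, and 4870 reached 0.05 before adjustment. Leaving out replicate 2 of the 15-month KIT+ cells gave adjusted p values of 0.0506 for Cd74 and 0.116 for H2-Aa. Leaving out replicate 2 of the 15-month KIT- cells gave 0.0601 and 0.0918 for the same genes and 0.0583 for Tlr2. C3 was not called without replicate 1 of the KIT+ cells (0.138), replicate 2 of the KIT+ cells (0.0588) or replicate 1 of the KIT- cells (0.0684). Of 27 called list genes compared in this way, 11 were called whichever 15-month library was left out, and none of these 11 was a macrophage, complement or class II gene (Kit, Nanos2, Nanos3, Pou5f1, Tnp1, Tnp2, Prm2, Odf1, Coro1a, Zbtb46 and Cdh5). The remaining calls were each lost without at least 1 of the 4 libraries.

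**Figure D3:**
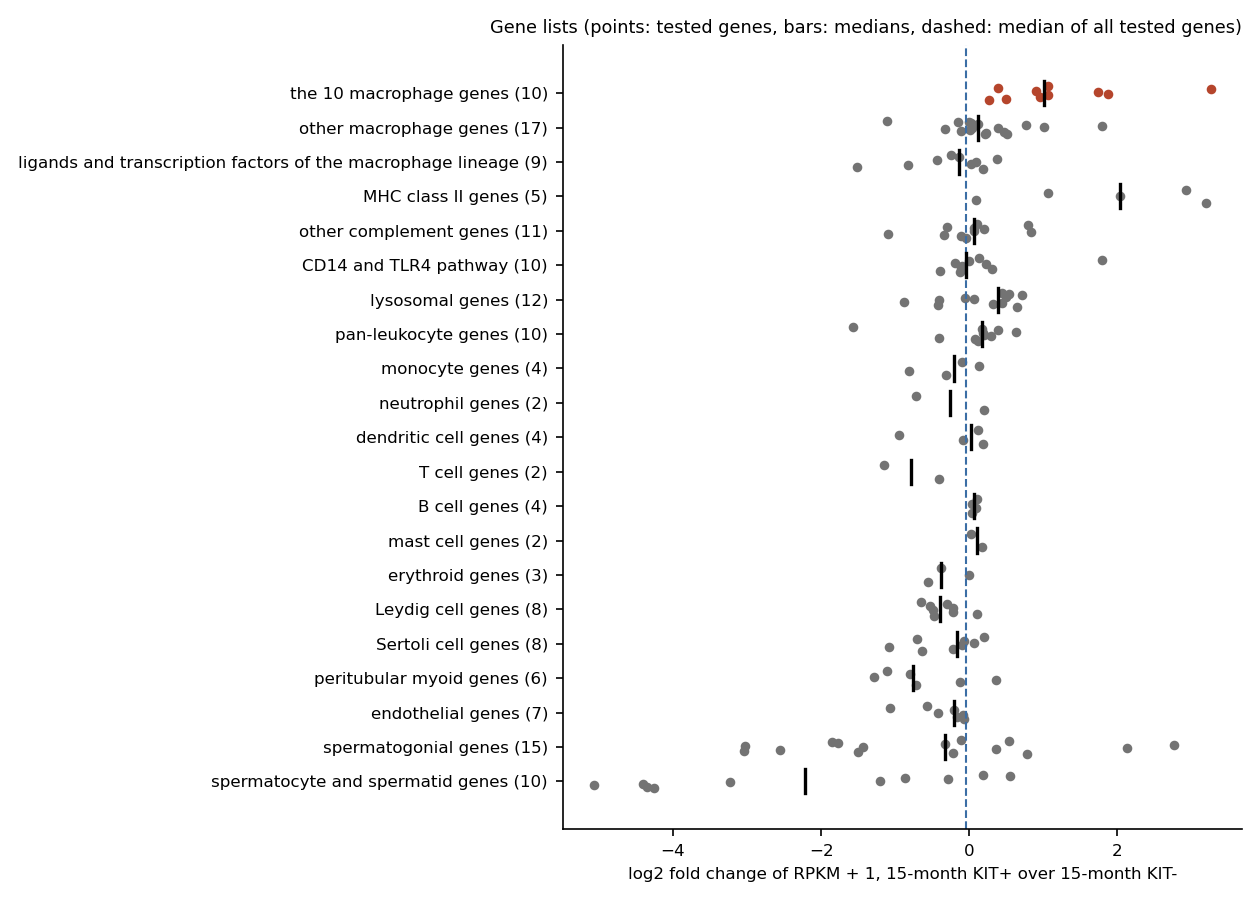
Log2 fold change of RPKM + 1, 15-month KIT+ over 15-month KIT- cells (horizontal axis), of each tested gene (points) in 21 gene lists (rows, number tested in brackets); black bars are list medians and the dashed line is the median of all tested genes (-0.04). The medians of the 10 macrophage genes (1.01) and of the MHC class II genes (2.04) lie furthest to the right and that of the spermatocyte and spermatid genes (-2.21) furthest to the left.

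Markers of other leukocytes ranged from absent to present, depending on the list. None of 6 natural killer cell genes had a read in either 15-month KIT+ library, and 8 of 10 neutrophil genes, 6 of 9 mast cell genes, 4 of 8 dendritic cell genes and 3 of 9 T cell genes were at 0 in both. Of the 7 B cell genes and the 7 monocyte genes, 1 each was at 0 in both. The B cell genes summed to 0.00669 and 0.95 RPKM in the 15-month KIT+ libraries and to at most 0.656 RPKM elsewhere, and 6 of the 7 were higher in replicate 2. None of them exceeded 3 reads in both 15-month KIT+ libraries, and 3 of the 4 that were tested entered the test only through those libraries. The monocyte genes summed to 19.0 and 19.1 RPKM there, within the range of the other libraries (17.4 to 39.6 RPKM). Among the genes at 0 in both were S100a8 and S100a9 of neutrophils, which also make Lyz2, and Ly6c2 of inflammatory monocytes. Ccr2, a receptor of those monocytes, had 0 and 1 reads, whereas 4 of the 7 monocyte genes exceeded 3 reads in both. The natural killer cell and neutrophil genes were low in the other groups too, with sums of at most 0.112 and 1.36 RPKM. Of the 12 pan-leukocyte genes 10 were tested, 4 of them only because of the 15-month KIT+ libraries, and the single gene called higher, Cd53, is one of those 4. It held 53 and 190 reads in the 15-month KIT+ libraries, 25 in replicate 1 of the 6-day KIT+ cells and 0 to 4 in the others. Coro1a, an actin regulator of leukocytes, was lower (log2 difference -1.58, SE 0.18, limma adjusted p = 0.00102) and was at 6.25 and 6.09 RPKM against 23.1 and 17.9 RPKM in KIT- cells. The summed pan-leukocyte level was 8.80 and 11 RPKM in 15-month KIT+ cells and 3.68 to 25.6 RPKM elsewhere. One gene each was called lower among the monocyte (Plac8), dendritic cell (Zbtb46) and T cell genes (Lck), and none was called among the neutrophil, mast cell, erythroid and B cell genes.

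No marker of the testicular somatic cells was called higher. No Leydig cell or Sertoli cell gene was called, and Tagln of peritubular myoid cells (-1.28, limma adjusted p = 0.0249) and Cdh5 of endothelium (-1.07, adjusted p = 0.00354) were lower in 15-month KIT+ than KIT- cells. The 9 Leydig cell genes summed to 2.44 and 7.02 RPKM in the 15-month KIT+ libraries and to 20.3 and 2.22 RPKM in the 15-month KIT- libraries. Their higher library in each group was also the one with more reads of most of the 10 macrophage genes, Emr1 and Cx3cr1 among them. In 15-month KIT- cells C1qc (2 and 45 reads) and Cd14 (59 and 74 reads) went the other way. Whether Leydig or other interstitial cells had a part in the level of the macrophage genes was not tested.

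The germ cell genes differed between the fractions in a larger range than the macrophage genes. Of 15 spermatogonial genes, Kit (2.77), Stra8 (2.13) and Dmrt1 (0.78) rose and 7 fell, among them Nanos3 (-3.04), Pou5f1 (-3.03) and Nanos2 (-2.55). Of 10 tested spermatocyte and spermatid genes, 7 fell, with Tnp1 at -5.07 and Prm2 at -4.41 (limma, called genes). The 15 spermatogonial genes summed to 1418 and 1244 RPKM in the 15-month KIT+ libraries, where the 10 macrophage genes summed to 15.4 and 48.2 RPKM. Of the spermatogonial genes, 14 of 15 were lower in replicate 2 of the 15-month KIT+ cells. Among the tested genes above 0 in both libraries, 46.6% were higher in replicate 2. Whether the spermatogonial and macrophage differences between these libraries are linked was not tested. Whether macrophage RNA in the sorted fraction or expression in the germ cells gave the reads of the macrophage genes cannot be told apart in bulk RNA. The part of the differing germ cell makeup was not tested.

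**Figure D4:**
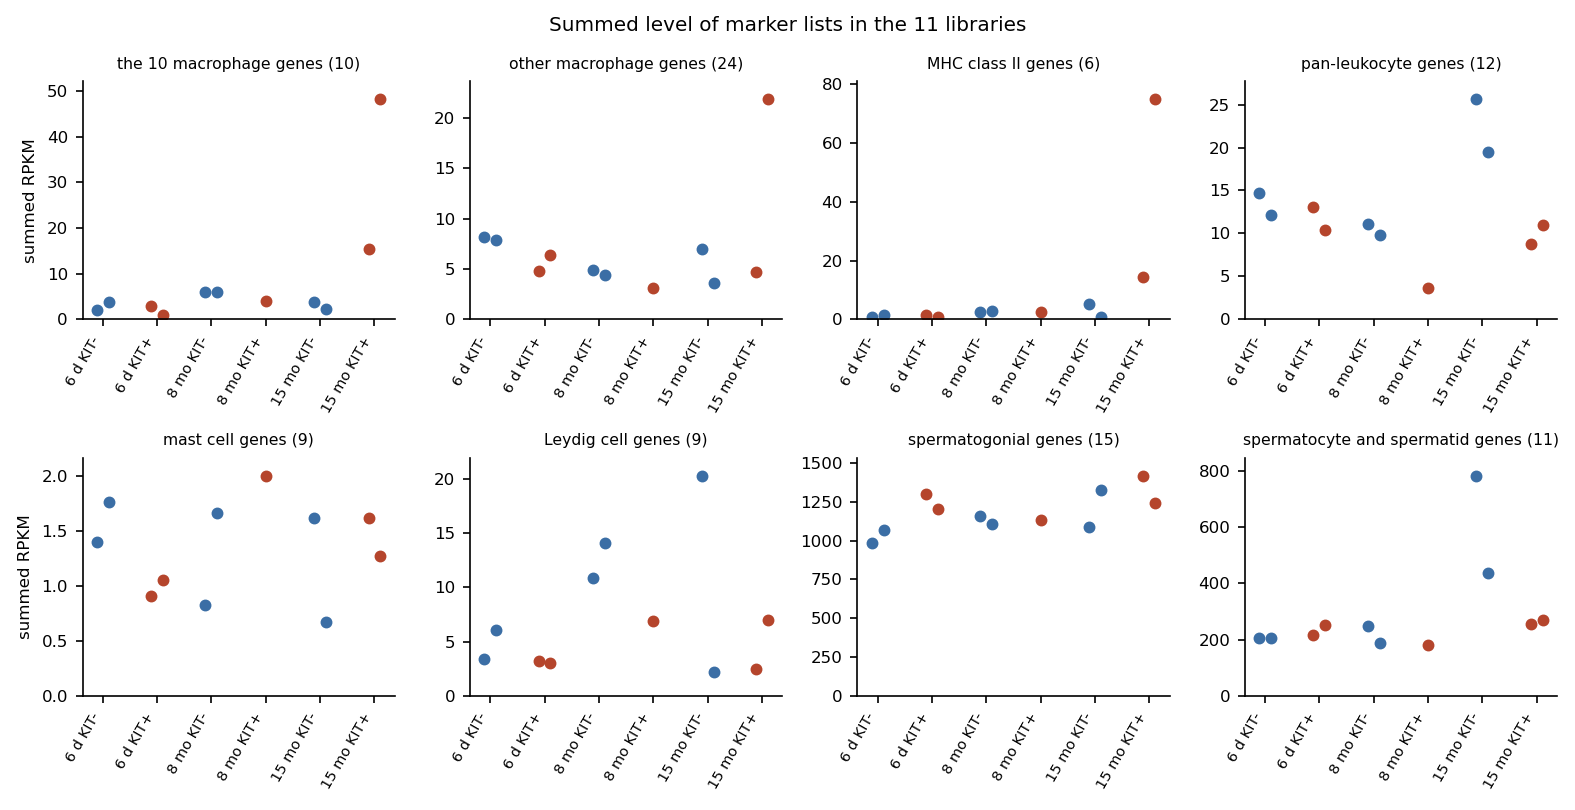
Summed RPKM (vertical axis, from 0) of 8 gene lists (panels, number of genes in brackets) in the 6 groups (horizontal axis); each point is a library (blue KIT-, red KIT+). The 10 macrophage genes (15.4 and 48.2 RPKM) and the MHC class II genes (14.5 and 75.0 RPKM) were highest in both 15-month KIT+ libraries, the other macrophage genes in replicate 2 alone, and the mast cell and pan-leukocyte genes in neither.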

How the data were processed

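RNA from FACS-sorted Oct4-GFP+ cells was depleted of rRNA and sequenced as paired-end reads. Per the study's methods, the authors trimmed with Trimmomatic, used the mm9 genome and counted on Ensembl genes with featureCounts, and the values were deposited as RPKM, 1 table per library. The submitters' processing notes list mm9, Trim Galore and RSEM with no role, and the methods name TopHat for transcript assembly from these reads. Whether TopHat also aligned the reads behind the gene tables, and the use of strand, are not given in the sources used here. Reads of close copies or overlapping genes may be misassigned.

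Repeated rows of an identifier (2007 rows of 667 identifiers, equal in value) were collapsed. RPKM times exon length and library total returned whole reads (within 0.05) for 98.1% to 98.3% of values. The tables hold RPKM and not counts, so limma 3.58.1 (R 4.3.3) with a variance trend was run on log2(RPKM + 1), with 6 groups and 11 libraries in one fit, for 18412 genes with 10 reads in 2 libraries. The pseudocount of 1 understates the change of low genes. Adjusted p are Benjamini-Hochberg values over these genes. The lone 8-month KIT+ library is assumed to vary like the other groups. Replicates are described as independent experiments. Read ratios have exact binomial intervals (95%). The fit was tested on simulated data.

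The members and the 21 other gene lists were chosen with earlier results of these data known. Named from each other list were the called genes with the largest change (up to 4), the ligands and partners Csf1, Il34, Cx3cl1, Tlr4, Ly96 and Spi1, and Kit, Pou5f1, Ddx4 and Dazl. Other named list genes were chosen after their values were seen. Ciita and Rhox5 matched no single row and were not used. The alternatives were a pseudocount of 0.1, a filter on mean RPKM (1 or more, 12139 genes), none (25657 genes), only the groups compared, median-of-ratios scaling, voom weights on recovered reads, a replicate block, and each library left out. Python 3.11.15 was used with numpy 2.4.6, pandas 2.3.3, scipy 1.17.1 and matplotlib 3.10.9.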

Additional observations from a re-analysis of the deposited data

Results flagged for a closer look

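The KIT+ minus KIT- difference on the log2(RPKM + 1) scale had opposite signs at 15 months and at another age for 11 genes, with the libraries of the groups not overlapping at either age. These differences between ages were not tested, and for the members and for genes named because they were called at 15 months the sign at 15 months is part of the choice. Groups had 1 or 2 libraries, too few to test a library for standing apart. Such separation is common with so few libraries. At 15 months both KIT+ libraries were above both KIT- libraries for 25.6% of the 18412 tested genes. How many of all tested genes meet the rule of opposite signs was not counted, so the 11 genes are not evidence of an excess.

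Among the macrophage genes, the difference at 8 months was -0.12 for Lyz2, -0.42 for Cd14, -0.24 for C1qa, -0.46 for C1qb and -0.17 for C1qc, against 3.27, 1.73, 1.87, 1.07 and 0.96 at 15 months. At 6 days it was -0.56 for Cd14 and -0.0356 for Cx3cr1, against 1.73 and 0.49 at 15 months. The 6-day sign of Cx3cr1 rests on 2 and 3 reads in KIT- and none in KIT+ cells. The 8-month values rest on 1 KIT+ library and on few reads. C1qa held 3 and 8 reads in 8-month KIT- cells and 2 in KIT+ cells. C1qc held 2 and 8 reads against 1, and Lyz2 12 and 19 against 12.

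Cd74, the invariant chain of MHC class II, differed by -0.16 at 8 months and 3.20 at 15 months. At 6 days the difference was -0.0246 for Ctss and -0.0585 for Mpeg1, against 1.80 and 0.77 at 15 months. The 6-day libraries of Ctss held 1 and 1 reads in KIT- and 1 and 0 in KIT+ cells, and those of Mpeg1 6 and 7 against 0 and 3 reads, so a sign there rests on few reads and for Ctss on a single one. Tagln, a contractile protein of peritubular cells, differed by 0.46 at 6 days and -1.28 at 15 months, and Tnp1, a spermatid nuclear protein, by 0.16 and -5.07.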

How the results depend on the processing

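The 10 genes had 103 values under the alternatives for 15-month KIT+ against KIT- cells, of which 101 were above 0 (the others were of Cd68, without replicate 2 of either group) and 74 moved by less than the SD of the libraries. The choice of the genes fixed much of this sign, so the count is not evidence of a difference. That SD is on the log2(RPKM + 1) scale, whereas the values with a pseudocount of 0.1 and with voom weights are on other scales. The median difference of the 10 genes from 15-month KIT- cells, 1.01 on the log2 scale, was 2.39 with a pseudocount of 0.1, 1.73 over the 3 genes with a mean of 1 RPKM or more, 4.30 with voom weights and 0.56 to 1.36 with a library left out. That from 8-month KIT+ cells, also 1.01, was 2.17, 1.71, 3.16 and 0.68 to 1.40. The size thus depends on the pseudocount, as most levels were near or below 1 RPKM. With a pseudocount of 0.1, 2 members were called between 8-month and 6-day KIT- cells (Lyz2 and C1qb) and 1 between 15-month and 8-month KIT- cells (C1qb), and with only the groups compared 2 were called in the former (Lyz2 and C1qb). Over all 18412 tested genes, these fits gave 3149 higher and 1503 lower, 455 and 342, and 2825 and 1481 calls, in that order. In all other settings 0 were called in the 4 tested comparisons. Of the other macrophage genes 3 were called, but 0 with the filter on mean RPKM (1 gene tested), 1 without a filter, 0 with only the groups compared and 0 with the replicate block, and 1 to 5 with a library left out (5 without replicate 1 and 1 without replicate 2 of 15-month KIT+, 1 without replicate 2 of 15-month KIT-). Of the 17 other macrophage genes tested, 7 entered the test only through the 15-month KIT+ libraries. Ctss and Mpeg1, the 2 higher calls among the 3, are among these 7. The filter thus favoured higher calls in this list, and their counts across the settings are not evidence of a difference. The remaining lists, without the other macrophage genes, together had 33 calls of 132 tested genes, 0 with only the groups compared and 21 with the replicate block. The 33 were 11 higher and 22 lower, beside 1243 higher and 2132 lower among all 18412 tested genes. Of the 11, C3ar1 and Cd53 also entered the test only through the 15-month KIT+ libraries. The number of calls in the remaining lists also changed with a library left out. Same-numbered libraries did not deviate together (r = 0.05 at 6 days and -0.06 at 15 months between KIT- and KIT+ deviations). Each value compares a single replicate difference per fraction, so it cannot show whether same-numbered fractions came from the same mice. The block took the calls over all genes at 15 months from 1243 higher and 2132 lower to 615 and 1186. In 8-month against 6-day KIT- cells, median-of-ratios scaling changed 2757 higher and 1434 lower calls to 1994 and 2110. Of 27 named list genes, 0 were called in every setting and 11 in every setting but that of the groups compared alone. Depth limits the 8-month libraries, the shallowest, where most members had 12 reads or fewer.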
